A study of Homo sapiens with 6 samples.

Results

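Transcripts of glycolysis enzymes and of the response to low oxygen were compared between a HEK293 line carrying a myocilin vector and one carrying a control vector. The set held 38 genes, chosen by name as enzymes of glycolysis and lactate metabolism, parts of the hypoxia-inducible factor (HIF) pathway and other genes induced by hypoxia. The choice was made with earlier results of these data known. Measurements of the set were all probe sets that the platform annotation assigns to 1 gene of the set, 74 probe sets of 36 genes among 18338 genes on the array. SLC16A1 and SLC16A3, which encode lactate transporters, were not analysed here. Of the 36 genes, 22 belong to glycolysis and lactate metabolism and 13 to the HIF pathway and hypoxia response, while MXRA5, a gene of a matrix protein, has no settled role in either.

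HEK293 is an established line of human embryonic kidney origin. The tested cells were a stable Tet-On line transfected with the myocilin vector, measured on 3 arrays, and the controls were a stable Tet-On line with the control vector, also on 3 arrays. In a Tet-On cell the added gene is switched on by doxycycline, and the labels' protocol, worded alike for both lines, gives 0.2 or 1 µg/ml for 48 h, in medium with hygromycin B and G418. The dose behind each array is not given, and only the myocilin samples carry a note on doxycycline, so exposure to the drug and the line cannot be told apart. Each vector is represented by 1 line. The labels do not tell whether separate cultures were used for the arrays of a line, and the p-values cover no more than the spread between these arrays, which may be technical.

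The values are the authors' deposited log-scale values, with a median of 0 on every array. What they are relative to is not stated, so they are used here to compare arrays and not as levels. Since brightness is lost, transcripts near background cannot be recognised, and the markers of the line could not be checked. MYOC, the added gene, read 0.21, 0.20 and 0.24 on the myocilin arrays and -6.71, -8.32 and -8.29 on the control arrays, in the direction of the labels. Over all probe sets, correlations were 0.513 to 0.608 among myocilin arrays, 0.409 to 0.464 among control arrays and -0.244 to -0.00516 between the lines. Some centring by probe set is inferred, which removes differences in level between probe sets. These correlations therefore do not show how well expression levels repeated between arrays. Groups were compared with limma over all 18338 genes, and a gene passed at an adjusted p (Benjamini-Hochberg) below 0.05. Where a gene had several probe sets, they were averaged first. All differences are myocilin minus control on the log2 scale.

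Glycolysis splits glucose into pyruvate in the cytosol, and lactate dehydrogenase turns pyruvate into lactate when it does not enter mitochondria. Pyruvate dehydrogenase kinases hold back that entry. When oxygen is low, prolyl hydroxylases of the EGLN family stop marking the HIF alpha subunits for destruction by the VHL ubiquitin ligase. The alpha subunit then pairs with ARNT and binds DNA at a short core sequence, and many glycolytic enzymes are among its known targets.

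The core sequence bound by HIF, ACGTG or GCGTG, was searched on both strands in RefSeq promoter windows of GRCh38.p14 that run from 250 bases before to 50 bases after an annotated start. Windows were at hand for 33 of the 36 genes. The 5 below belong to genes that passed the test, 4 lower and 1 higher in the myocilin line, and show that such letters occur near the starts of genes that went in either direction. They were chosen after the values were seen. For PDK1 and PFKFB3, with 2 annotated starts each, the window with the most matches is shown. Capitals mark the matches.
PDK1, chr2:172555840-172556139, plus strand: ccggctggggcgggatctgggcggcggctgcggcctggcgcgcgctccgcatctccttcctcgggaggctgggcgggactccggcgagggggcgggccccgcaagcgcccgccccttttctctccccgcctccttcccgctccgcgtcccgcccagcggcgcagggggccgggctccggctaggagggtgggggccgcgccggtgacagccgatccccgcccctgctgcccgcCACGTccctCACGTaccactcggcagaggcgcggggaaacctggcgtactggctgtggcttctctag
ANKRD37, chr4:185396591-185396890, plus strand: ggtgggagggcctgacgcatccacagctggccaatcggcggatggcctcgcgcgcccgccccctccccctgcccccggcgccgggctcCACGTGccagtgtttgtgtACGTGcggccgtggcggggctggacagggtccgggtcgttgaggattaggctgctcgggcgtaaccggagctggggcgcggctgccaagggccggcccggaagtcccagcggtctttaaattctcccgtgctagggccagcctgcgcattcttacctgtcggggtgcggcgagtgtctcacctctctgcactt
ADM, chr11:10304823-10305122, plus strand: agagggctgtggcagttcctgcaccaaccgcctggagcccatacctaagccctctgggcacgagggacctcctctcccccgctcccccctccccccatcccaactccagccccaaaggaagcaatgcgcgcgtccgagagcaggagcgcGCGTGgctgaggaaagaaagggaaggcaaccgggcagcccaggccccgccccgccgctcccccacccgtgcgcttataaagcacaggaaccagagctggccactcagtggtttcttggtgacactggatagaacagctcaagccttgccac
ENO2, chr12:6914330-6914629, plus strand: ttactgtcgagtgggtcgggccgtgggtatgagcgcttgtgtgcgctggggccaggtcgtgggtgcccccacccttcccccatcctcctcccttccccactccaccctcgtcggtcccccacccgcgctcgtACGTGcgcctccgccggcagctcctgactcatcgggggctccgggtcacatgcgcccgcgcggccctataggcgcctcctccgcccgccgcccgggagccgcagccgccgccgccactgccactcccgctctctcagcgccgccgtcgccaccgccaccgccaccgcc
PFKFB3, chr10:6202682-6202981, plus strand: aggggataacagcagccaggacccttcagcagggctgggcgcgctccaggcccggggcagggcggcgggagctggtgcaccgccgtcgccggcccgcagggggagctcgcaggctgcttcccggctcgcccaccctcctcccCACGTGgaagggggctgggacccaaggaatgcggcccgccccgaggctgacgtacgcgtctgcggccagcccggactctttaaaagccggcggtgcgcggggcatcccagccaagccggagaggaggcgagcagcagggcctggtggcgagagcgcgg
Positions are those of the first base of a match, counted back from the start. In PDK1 the matches begin at -17 and -8, both on the opposite strand. ANKRD37 holds 3, of which a pair at -162 and -161 forms the palindrome CACGTG, the E-box bound by MYC and related factors, and the third lies at -143. ADM has a single match at -101 and ENO2 a single match at -118. The match of PFKFB3 is again a CACGTG palindrome, counted on both strands, at -108. At least 1 match stood in a window of 29 of the 33 genes (87.9%), and in a window of 14318 of all 27305 genes with one (52.4%). Those 27305 genes are not limited to genes on the array, and genes with several starts have more windows, so the shares are not like for like. Among members that did not pass the test the share was 21 of 25 (84.0%). A match is a run of letters and shows no binding.

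Differences in this set were small, and they went both ways. In the myocilin line 3 of the 36 genes rose (HK1, PFKFB3 and NDRG1), 6 fell (TPI1, ENO2, PKM, PDK1, ADM and ANKRD37) and 27 did not pass the test. Of all 18338 genes, 15.6% passed, 8.28% higher and 7.35% lower, against 25.0% of the members. Since the members were chosen with earlier results of these data known, their higher share is a description and no test. The median difference of the members was -0.09, beside 0.02 over all genes, and 25 of the 36 differences were below 0. Changes of 2-fold or more were seen for 0 of the 36 members, and for only 59 of all 18338 genes. The median absolute difference was 0.30 for members that passed, beside 0.32 for all genes that passed. On the array values themselves, the groups did not overlap for 25 of the 36 members, 17 lower and 8 higher, against 34.9% of all genes (16.0% lower and 18.9% higher).

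**Figure D1:**
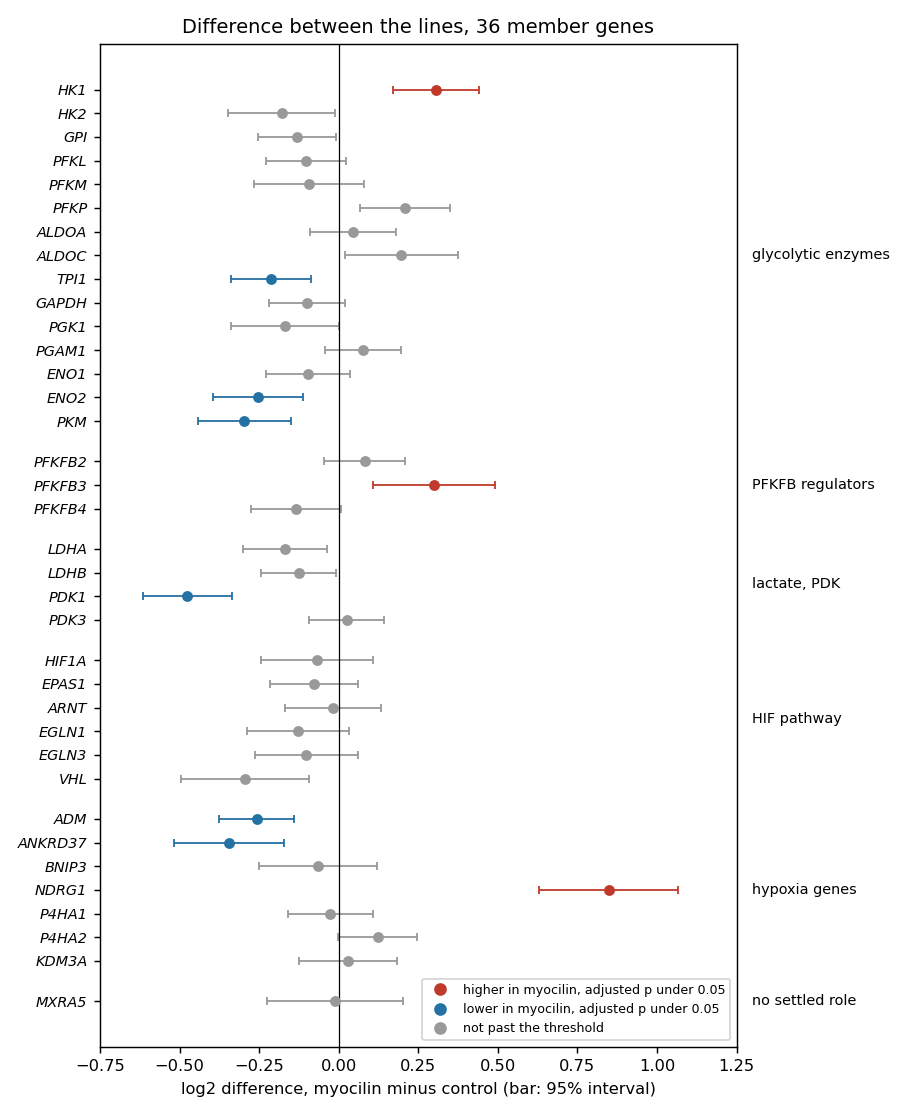
Log2 difference, myocilin minus control, on the horizontal axis for each of the 36 member genes, grouped by role, with 95% intervals from limma. Red points rose, blue points fell and grey points did not pass the adjusted threshold; NDRG1, at 0.85, lies far to the right of the others, and PDK1, at -0.48, farthest to the left.

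The first steps of glycolysis held a gene that rose. HK1 encodes hexokinase 1, which phosphorylates glucose on entry. It lies at chr10:69270000-69401882. HK1 read 0.35, 0.20 and 0.26 on the myocilin arrays and -0.01, -0.06 and -0.03 on the control arrays. All myocilin values were above all control values, and the difference was 0.31 with a standard error of 0.06, or 1.24-fold (limma adjusted p = 0.00934). HK2, the inducible hexokinase and a known HIF target, read -0.00074, 0.04 and -0.12 on the myocilin arrays and 0.07, 0.10 and 0.29 on the control arrays. Its groups did not overlap either, with the myocilin arrays lower, but the difference of -0.18 did not pass the test (adjusted p = 0.142). The difference between the hexokinases was not tested.

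Downstream of hexokinase, GPI, which makes fructose 6-phosphate, differed by -0.13 (adjusted p = 0.143). Phosphofructokinase, the committing step of the pathway, has liver, muscle and platelet forms. PFKP, the platelet form, read 0.18, 0.13 and 0.17 on the myocilin arrays and 0.05, -0.11 and -0.10 on the control arrays. It was higher on every myocilin array, and at 0.21 it lay just outside the threshold (adjusted p = 0.0531). PFKP was called higher in 4 of 14 alternatives, namely without the probe sets ending in _x_at or _s_at (0.36), with 1 probe set per gene, with array weights, and without control array 1 (0.26). PFKL differed by -0.10 and PFKM by -0.09, with 95% intervals of -0.23 to 0.02 and -0.27 to 0.08.

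The PFKFB enzymes set the level of fructose 2,6-bisphosphate, an activator of phosphofructokinase. PFKFB3, a form with strong kinase activity, lies at chr10:6144921-6326637. It read 0.30, 0.37 and 0.05 on the myocilin arrays and -0.13, 0.01 and -0.05 on the control arrays. Myocilin array 3 lay close to the highest control array. The rise of 0.30 with a standard error of 0.09, or 1.23-fold, was just past the threshold (adjusted p = 0.0435). It passed in 4 of the 13 alternatives that gave it a value. Of these 4, median centring only repeats the fit over all genes, since array medians are 0. The median of probe sets likewise left the values of PFKFB3 unchanged. The others were array weights (0.34), with a weight of 0.68 for myocilin array 3, and the fit without that array (0.39). PFKFB3 rests on 1 probe set, whose ID ends in _s_at. PFKFB2 differed by 0.08 and PFKFB4 by -0.13, neither past the threshold. The 4 probe sets of PFKFB2 read from -0.18 to 0.39, and the highest passed the test over all probe sets (adjusted p = 0.037).

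HK1, PFKP, PFKFB3, PGAM1, BNIP3 and P4HA1 all lie on chromosome 10, where the median gene differed by 0.11 and 152 of 715 genes rose while 20 fell. The 50 nearest named genes of these 6 differed by 0.08 to 0.11. With those neighbours subtracted on each array, HK1 differed by 0.20 (adjusted p = 0.0568), PFKFB3 by 0.22 (adjusted p = 0.147) and PFKP by 0.12, so that no member of glycolysis and lactate metabolism was called higher. NDRG1, the member that rose outside chromosome 10, differed by 0.81 in that fit (adjusted p = 0.00109).

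In the middle of the pathway, aldolase splits the sugar into triose phosphates. ALDOA differed by 0.05, and ALDOC, the brain form, by 0.20 (adjusted p = 0.128), with all myocilin arrays at 0.37 to 0.49 above the control arrays at 0.06 to 0.34. TPI1 encodes triosephosphate isomerase, which interconverts the 2 trioses, and lies at chr12:6867420-6870948. It read -0.07, -0.09 and -0.09 on the myocilin arrays and 0.17, 0.06 and 0.17 on the control arrays. The groups were apart on every array, and TPI1 fell by 0.21 with a standard error of 0.06, or 1.16-fold (adjusted p = 0.0324). That call held in 7 of 14 alternatives. It was lost without control array 1 or 3, and without any 1 of the myocilin arrays. The median of probe sets and 1 probe set per gene lost it too. GAPDH, which carries out the next step and often serves as a loading reference, read -0.01, -0.05 and -0.04 on the myocilin arrays and 0.03, 0.10 and 0.07 on the control arrays. Its difference of -0.10 did not pass (adjusted p = 0.248), although every myocilin array was below every control array.

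Of the later steps, ENO2 and PKM fell. PGK1, phosphoglycerate kinase, differed by -0.17 (adjusted p = 0.169), with its lowest myocilin value, -0.26, on array 3. All 5 probe sets of PGK1 were below 0, at -0.24 to -0.11. PGAM1, phosphoglycerate mutase, differed by 0.08, and by -0.0037 with its chromosomal neighbours subtracted. ENO1, the ubiquitous enolase, differed by -0.10. ENO2, the neuronal enolase, lies at chr12:6914580-6923697 and read -0.09, -0.17 and -0.14 on the myocilin arrays and 0.22, 0.05 and 0.10 on the control arrays. ENO2 fell by 0.25 with a standard error of 0.06, or 1.19-fold (adjusted p = 0.0261), in the fit over all genes and in 8 of 14 alternatives. Of these 8, median centring, the median of probe sets and dropping the _x_at and _s_at probe sets left its values unchanged. ENO2 missed the threshold without control array 1 or 3, and without any 1 of the myocilin arrays. PKM, pyruvate kinase of muscle and most other tissues, lies at chr15:72199029-72231591. It read 0, -0.20 and -0.06 on the myocilin arrays and 0.23, 0.17 and 0.22 on the control arrays. PKM fell by 0.30 with a standard error of 0.07, or 1.23-fold (adjusted p = 0.0155), and missed the threshold in 1 of 14 alternatives, without myocilin array 2 (-0.24, adjusted p = 0.0525). Its single probe set does not separate the known splice forms of the gene.

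After pyruvate, LDHA and LDHB, the subunits of lactate dehydrogenase, were lower on every myocilin array. LDHA read -0.16, -0.12 and -0.21 on the myocilin arrays and -0.02, -0.05 and 0.07 on the control arrays, a difference of -0.17 (adjusted p = 0.0864). LDHB differed by -0.13 (adjusted p = 0.139). PDK1 encodes a pyruvate dehydrogenase kinase and a known HIF target, and lies at chr2:172555373-172724312. It read -0.15, -0.24 and -0.32 on the myocilin arrays and 0.23, 0.27 and 0.21 on the control arrays. The lines were well apart, and PDK1 fell by 0.48 with a standard error of 0.06, or 1.39-fold (adjusted p = 0.00132), the lowest difference of the set. Both of its probe sets passed on their own, at -0.57 and -0.38. PDK3, a related kinase, read -0.06, -0.10 and -0.05 on the myocilin arrays and -0.08, -0.11 and -0.08 on the control arrays. These overlapped, and its difference was 0.03 with a 95% interval of -0.09 to 0.14.

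Over glycolysis and lactate metabolism, 2 of 22 genes rose, 4 fell and 16 did not pass, and the groups of arrays did not overlap for 19 of them (13 lower and 6 higher), against 34.9% of all genes. The median difference was -0.10. Of these 22 genes, 12 had an unadjusted p under 0.05, against 30.0% of all genes, and 6 passed after adjustment (27.3%, against 15.6% of all genes).

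**Figure D2:**
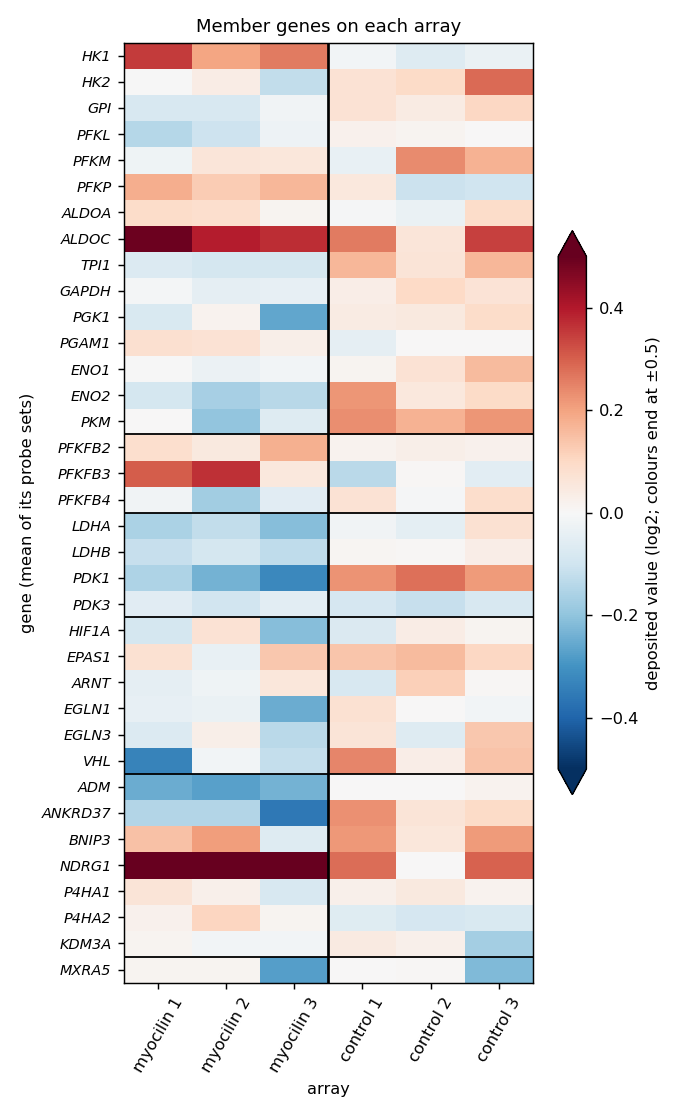
Deposited log2 value of each member gene (rows, grouped by role as in the text) on each of the 6 arrays (columns, myocilin arrays left of control arrays). NDRG1 is high on all myocilin arrays, PDK1 and ADM are low on all of them, and of the HIF pathway rows, HIF1A, ARNT and EGLN3 hold values above and below 0 in both lines, while VHL is below 0 on all myocilin arrays and above 0 on all control arrays.

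No gene of the HIF pathway itself passed limma's adjusted threshold (0 of 6 in the fit over all genes), against 15.6% of all genes, and VHL alone had an unadjusted p under 0.05, against 30.0% of all genes. All 6 differences were below 0, with a median of -0.09. HIF1A, the alpha subunit found in most cells, read -0.09, 0.07 and -0.21 on the myocilin arrays and -0.07, 0.04 and 0.01 on the control arrays. The arrays overlapped, and the difference was -0.07 with a 95% interval of -0.24 to 0.11. EPAS1, the second alpha subunit (HIF-2 alpha), differed by -0.08 and the partner ARNT by -0.02. HIF activity is controlled largely at the protein level, which these arrays do not measure.

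The oxygen sensors EGLN1 and EGLN3, prolyl hydroxylases that are themselves induced by HIF, differed by -0.13 and -0.10. EGLN1 read -0.04, -0.03 and -0.25 on the myocilin arrays and 0.08, 0.0027 and -0.01 on the control arrays. The values did not overlap, and array 3 of the myocilin line stood below the other two. VHL, the substrate-binding part of the ubiquitin ligase, read -0.33, -0.01 and -0.12 on the myocilin arrays and 0.24, 0.03 and 0.14 on the control arrays. Its difference of -0.29 lay just outside the threshold (adjusted p = 0.0555), and its probe sets read -0.51 and -0.08. VHL was called lower in 3 of 14 alternatives, namely with array weights, with 1 probe set per gene, and without myocilin array 2 (-0.37).

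Genes known as induced by hypoxia held the largest rise of the set and a pair of falls. NDRG1, a stress-responsive gene induced by hypoxia and by iron chelation, lies at chr8:133237175-133297252. It read 1.10, 1.14 and 0.88 on the myocilin arrays and 0.28, 0 and 0.29 on the control arrays. Every myocilin array was far above the control arrays, and NDRG1 rose by 0.85 with a standard error of 0.10, or 1.80-fold (adjusted p = 0.000785). It ranked 49th among the 18338 genes by rise, and it passed in all 13 alternatives that gave it a value. It rests on 1 probe set, whose ID ends in _s_at, a mark of probes that may match several transcripts.

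ADM encodes adrenomedullin, a secreted vasodilator peptide, and lies at chr11:10305073-10307397. It read -0.25, -0.27 and -0.24 on the myocilin arrays and 0, 0 and 0.02 on the control arrays. Both groups were tight, and ADM fell by 0.26 with a standard error of 0.05, or 1.20-fold (adjusted p = 0.0108). ADM rests on 1 probe set. Control arrays 1 and 2 read exactly 0, a value found on some array for 57.3% of all probe sets. The control spread may therefore not show how closely measurements repeated. ANKRD37, an ankyrin repeat gene that hypoxia induces through HIF, lies at chr4:185396841-185400723. It read -0.15, -0.15 and -0.36 on the myocilin arrays and 0.23, 0.06 and 0.09 on the control arrays. It fell by 0.35 with a standard error of 0.08, or 1.27-fold (adjusted p = 0.0163). Of its probe sets, 1 fell by 0.66 (adjusted p = 0.00611 over all probe sets), while the other, with an ID ending in _x_at, read -0.04. The gene missed the threshold without control array 1 (-0.30, adjusted p = 0.0504).

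**Figure D3:**
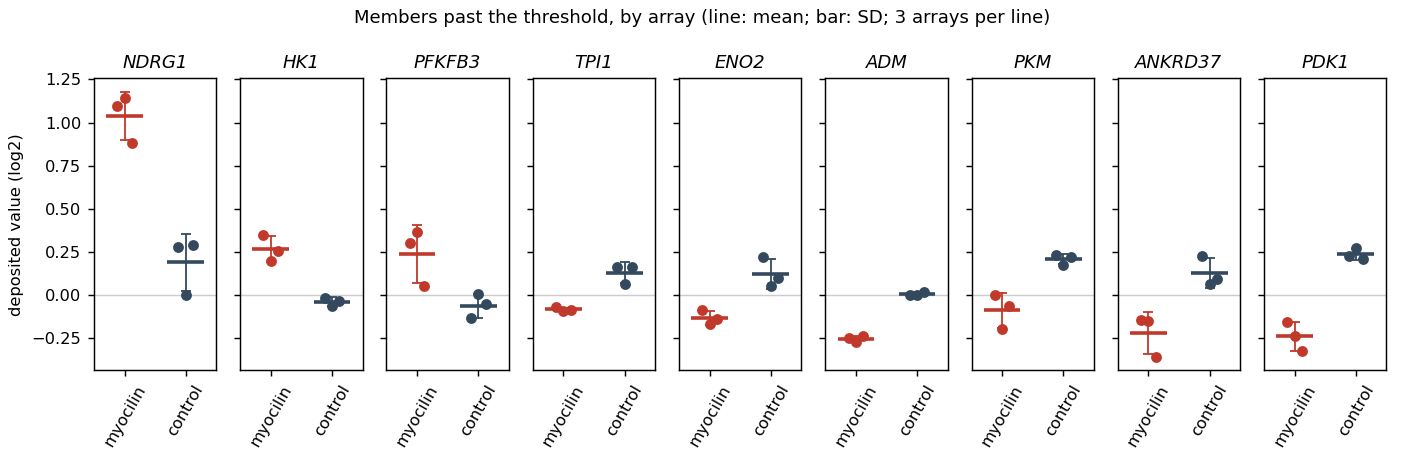
Deposited log2 values of the 9 members that passed the threshold, with 1 point per array, myocilin arrays left of control arrays, the mean as a line and the SD as a bar (n = 3 each). Myocilin points lie above all control points for NDRG1, HK1 and PFKFB3 and below them for the other genes; PFKFB3 on myocilin array 3, at 0.05, comes closest to the control points.

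The other hypoxia genes did not pass. BNIP3, a mitochondrial protein that promotes mitophagy, read 0.15, 0.21 and -0.07 on the myocilin arrays and 0.22, 0.06 and 0.21 on the control arrays, which overlapped. Its difference was -0.07 (95% interval -0.25 to 0.12). P4HA1 and P4HA2, alpha subunits of the collagen prolyl 4-hydroxylase, differed by -0.03 and 0.12, the second with all myocilin arrays (0.01 to 0.11) above the control arrays (-0.09 to -0.06) and an adjusted p of 0.171. KDM3A, a histone H3 lysine 9 demethylase, differed by 0.03. MXRA5 read 0.01, 0.01 and -0.27 on the myocilin arrays and 0, 0.01 and -0.22 on the control arrays, so its difference of -0.01 sat within a wide spread in both lines.

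Of the 13 HIF pathway and hypoxia genes, 1 rose, 2 fell and 10 did not pass (23.1% passed, against 15.6% of all genes), with a median difference of -0.07, beside 0.02 over all genes. Myocilin array 3 was the lowest of its line for 8 of these 13 genes (61.5%), against 33.0% of all genes. Among the 22 genes of glycolysis and lactate metabolism, myocilin array 2 was the lowest of its line for 11 of the 22, against 36.3% of all genes, and myocilin array 3 for 9 (40.9%, against 33.0%), while control array 2 was the lowest of its line for 12 (54.5%, against 35.3%). Without myocilin array 3, BNIP3 differed by 0.02, ANKRD37 by -0.28 and PDK1 by -0.43.

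Probe sets of the same gene differed in several cases. Over all 41751 probe sets, 11.0% passed limma's adjusted threshold, and of the 74 member probe sets 10 passed, 4 higher and 6 lower. PFKP had 1 probe set that rose by 0.36 (adjusted p = 0.0126) and another at 0.06. The 5 probe sets of ARNT read from -0.15 to 0.11, and none passed. For 12 members, among them NDRG1, PFKFB3, GAPDH, ALDOA, LDHA and LDHB, all probe sets end in _x_at or _s_at. Transcripts of related genes or pseudogenes may contribute to those, so their values are uncertain. ENO2, PFKFB3 and 12 further members rest on a single probe set; neither of these 2 passed in the test over all probe sets (adjusted p = 0.058 and 0.0706).

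**Figure D4:**
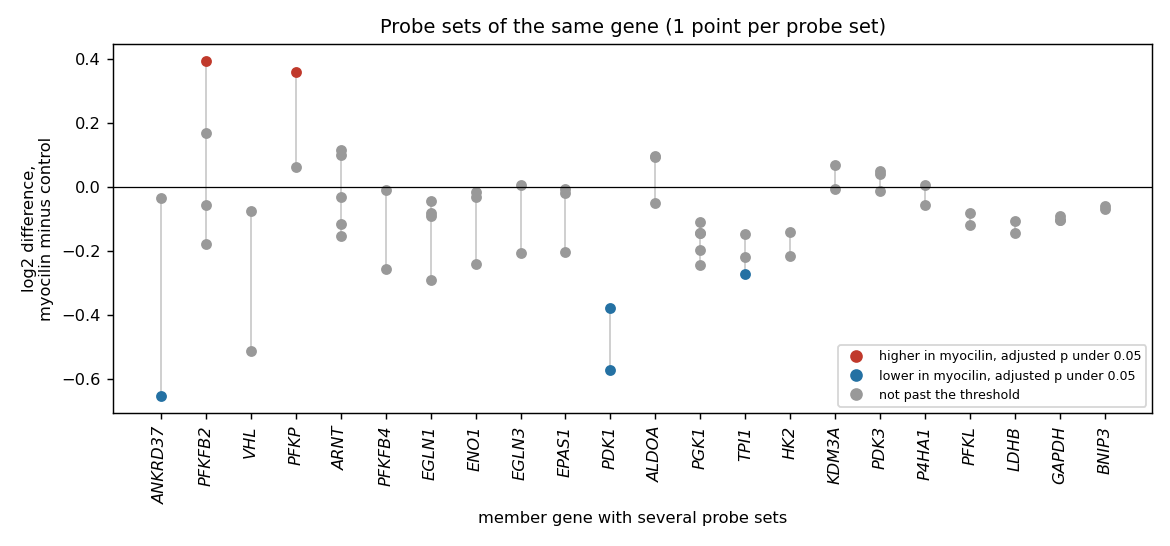
Log2 difference, myocilin minus control, on the vertical axis for each probe set of the 22 members with several probe sets, ordered by the distance between them. The probe sets of ANKRD37 (-0.66 and -0.04) lie farthest apart, and those of BNIP3 closest together.

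Other genes of the same pathways, from lists chosen with earlier results of these data known, were read from the same fit. Of 32 further genes of glycolysis, the pentose phosphate pathway and pyruvate use, 1 rose and 4 fell (15.6%, the same as over all genes), with a median of -0.03. ME2, the mitochondrial malic enzyme, fell by 0.42 and lies on chromosome 18, where the median gene differed by -0.21. LDHC, the testis form of lactate dehydrogenase, fell by 0.39. PDHB and DLD, subunits of the pyruvate dehydrogenase complex that PDK1 inhibits, fell by 0.27 and 0.25, with PDHB at -0.13, -0.11 and -0.15 on the myocilin arrays and 0.15, 0.15 and 0.12 on the control arrays. Other parts of that complex, named after their values were seen, did not pass. PDHA1 differed by -0.17, PDHX by -0.09 and DLAT by 0.01. MPC1, part of the mitochondrial pyruvate carrier, rose by 0.26 (adjusted p = 0.0313). MPC1 lies on chromosome 6, where the median gene differed by 0.09 and 228 of 1006 genes rose while 17 fell. Its chromosomal neighbours differed by 0.07.

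Of 17 further genes of oxygen sensing, 1 rose and 4 fell (29.4%, against 15.6% of all genes), with a median of 0.02. ARNT2, a relative of ARNT, read -0.66, -0.58 and -0.58 on the myocilin arrays and -0.06, -0.17 and -0.23 on the control arrays, and fell by 0.45 with a standard error of 0.06 (adjusted p = 0.00182). CITED2, which competes with HIF1A for the coactivators p300 and CBP, fell by 0.38. SIAH2, a ubiquitin ligase that targets EGLN proteins, fell by 0.32 and OS9 by 0.23, while the chaperone gene HSP90AB1 rose by 0.19 (adjusted p = 0.0479). Like MPC1, HSP90AB1 lies on chromosome 6, and its chromosomal neighbours differed by 0.11. CITED2, which fell, lies on that chromosome too, with neighbours at 0.09.

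Of 51 hypoxia-induced genes measured outside the set, 17 fell and 5 rose (43.1% passed, against 15.6% of all genes), with a median difference of -0.08. STC2 and STC1, secreted stanniocalcins, fell by 1.09 and 1.06. DDIT4, an inhibitor of mTORC1, fell by 1.08 and SLC2A3, the glucose transporter GLUT3, by 1.01. SLC2A3 read -0.48, -0.39 and -0.56 on the myocilin arrays and 0.53, 0.62 and 0.46 on the control arrays. PLOD2, a collagen lysyl hydroxylase, fell by 0.57. STC2 and DDIT4 are also known as genes induced by ATF4, the factor that answers amino acid shortage.

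Among those that rose, MXI1, a MAX-binding antagonist of MYC, read 0.49, 0.52 and 0.43 on the myocilin arrays and -0.12, -0.15 and -0.01 on the control arrays. MXI1 rose by 0.57 with a standard error of 0.06 (adjusted p = 0.000547), and like HK1 it lies on chromosome 10. JMJD6, a nuclear dioxygenase, rose by 0.38, SPAG4 by 0.28, the phosphatase gene DUSP1 by 0.22 and TPBG by 0.22. JMJD6 lies on chromosome 17, where 119 of 1070 genes rose and 23 fell, and its chromosomal neighbours differed by 0.08. TPBG lies on chromosome 6, and its chromosomal neighbours differed by 0.12. The fit with neighbours subtracted is not reported here for JMJD6, TPBG, HSP90AB1 and MPC1. How much of their rises goes with their chromosomes was not tested. VEGFA, the angiogenic growth factor and a textbook HIF target, was chosen after its value was seen. It read -0.13, -0.20 and -0.15 on the myocilin arrays and 0.25, 0.41 and 0.09 on the control arrays, and fell by 0.41 (adjusted p = 0.0107). VEGFA too lies on chromosome 6, and its chromosomal neighbours differed by 0.13. SLC2A1, the glucose transporter GLUT1, also chosen after its value was seen, differed by -0.14 and did not pass (adjusted p = 0.236).

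**Figure D5:**
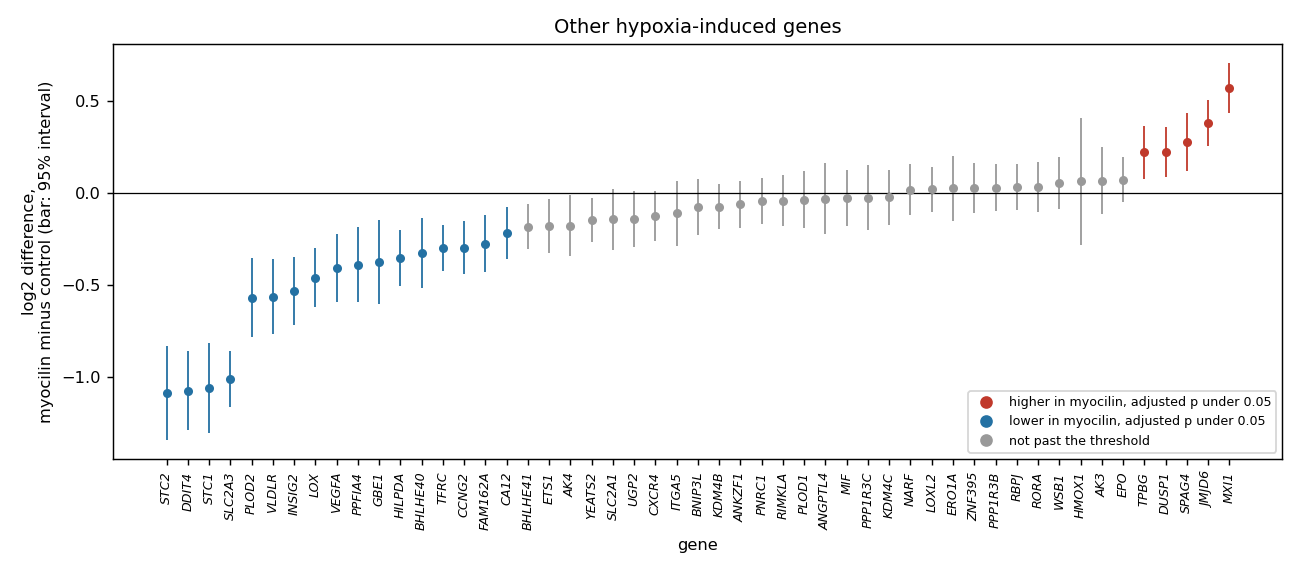
Log2 difference, myocilin minus control, on the vertical axis for the 51 hypoxia-induced genes outside the set, in order of the difference, with 95% intervals from limma. STC2, DDIT4, STC1 and SLC2A3 form the low end at -1.09 to -1.01, and MXI1 is the high end at 0.57.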

How the data were processed

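Total RNA of 6 HEK293 samples, 3 per line, was hybridised to Affymetrix HG-U133 Plus 2.0 arrays. The authors deposited 1 table of 41751 probe sets with positive and negative values, read here as log2. Base 2 was taken from their range, since no label states it. How probes were summarised and normalised is not given in the sources used here. Array medians are all 0, and an exact 0 occurs on some array for 57.3% of the probe sets. What the values are relative to is not stated. Some form of centring by probe set is inferred, and not over these 6 arrays alone, since a gene such as NDRG1 reads 0 or above on all 6. No filter on low values or pseudocount was applied.

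Of the probe sets, 37460 had 1 gene in the platform annotation, and 37416 of these matched RefSeq (GRCh38.p14) by Entrez identifier for current symbols and positions. Groups came from the source names, and arrays were numbered in accession order. Genes, as means of their probe sets, were fitted in R 4.3.3 with lmFit and eBayes of limma 3.58.1 (two-sided test), a step tested on simulated data. By size of change, that check set a minimum recovery only for 2-fold changes, which are larger than the difference of any member. Precision is limited by 3 arrays per line. The members and lists were chosen with earlier results of these data known. Every member could be named, and up to 5 genes per direction from each further list, by size of difference. Alternatives were quantile normalisation, median centring, other summaries of probe sets, array weights, a trended and robust eBayes, subtraction of 50 chromosomal neighbours, and each array left out.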

Additional observations from a re-analysis of the deposited data

How the results depend on the processing

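Members called higher numbered 3 and members called lower 6 in the fit over all genes. Subtracting chromosomal neighbours kept the same 6 called lower, with PDK1 at -0.40. It left 1 called higher, and 0 of the glycolysis and lactate genes, against 2. That count was 1 under quantile normalisation and with trended, robust eBayes, where PFKFB3 missed the threshold. Array weights, which added PFKP and VHL, gave 4 higher and 7 lower. With 1 probe set per gene, 2 glycolysis and lactate genes were called lower, against 4. Leaving out probe sets with the endings _x_at and _s_at kept 24 members, and 0 HIF pathway and hypoxia genes were called higher, since NDRG1 has no other probe set. When 1 array was left out, members called higher ranged from 2 to 3 and those called lower from 3 to 6, with 3 without control array 1. For glycolysis and lactate genes these ranges were 1 to 2 higher and 1 to 4 lower. The count called higher was 1 without control array 2 or 3 or myocilin array 1 or 2. The count called lower was 2 without control array 1 or 3 or myocilin array 1 or 3, and 1 without myocilin array 2. For HIF pathway and hypoxia genes they were 1 higher throughout and 1 to 3 lower, lowest without control array 1. PDK1, ADM and NDRG1 passed in each alternative that gave them a value. Median centring changed no value, and other summaries of probe sets changed none for members with 1 probe set. Over all genes, 2866 were called, against 1613 on leaving out myocilin array 1, 1905 for myocilin array 2, 1889 for control array 2 and 1878 on dropping the _x_at and _s_at probe sets. Quantile normalisation gave 5 higher and 26 lower among the further pathway genes, against 7 and 25.

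Members that did not pass changed sign in a few fits without passing there. With neighbours subtracted ALDOA read -0.0683 and PGAM1 -0.00372. The median of probe sets gave PDK3 -0.0115. With 1 probe set per gene ARNT read 0.0992. P4HA1 read 0.00528 when the _x_at and _s_at probe sets were dropped. MXRA5 read 0.0042 under quantile normalisation and 0.0449 with array weights. With 1 array left out, the differences ran from -0.0664 to 0.0346 for ARNT, -0.12 to 0.016 for BNIP3, -0.0574 to 0.0152 for P4HA1, -0.0381 to 0.0685 for KDM3A and -0.0854 to 0.0849 for MXRA5. Where the setting itself does not show why a value moved, the cause was not tested. No paired analysis was possible because the titles of the 2 lines share no replicate numbers.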
